A study of Rattus norvegicus with 6 samples.

Results

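The genes described here encode the secreted and membrane-bound cues that steer growing axons, and the receptors that read them. A total of 68 of the 22536 genes in the deposited table carry a symbol of the semaphorin (classes 3 to 7), plexin, neuropilin, ephrin, Eph, Slit, Robo, netrin or Unc5 families, or are Dcc. Membership was set by symbol alone, with earlier results of these data known. By symbol, 35 are ligands and 33 are receptors. Sequencing covered 3 rats labelled control and 3 labelled PDN, for painful diabetic neuropathy, the pain that can follow nerve damage in diabetes. All 6 animals were male, and every library is labelled as sensory neuron, while the title names the dorsal root ganglion, which holds the cell bodies of sensory neurons. The labels give no strain, age, way of inducing diabetes or other treatment. Each library is taken as 1 animal, since the series' design text counts rats. Nothing further is said of how animals were assigned. For these 6 libraries, the p-values set a group difference against the spread within the groups, pooled in part over all tested genes.

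Axon guidance works through paired surface systems. Class 3 semaphorins are secreted and bind neuropilins, which signal through A-type plexins, whereas class 4 to 6 semaphorins bind plexins directly. Ephrins are anchored to the membrane and signal through Eph receptor tyrosine kinases on the neighbouring cell, Slits repel through Robo receptors, and netrins attract through Dcc or repel through Unc5 receptors. In the adult ganglion these genes remain transcribed in neurons, glia and vessels, and they are studied for axon regrowth and for contacts between neurons and glia.

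The labelled tissue was checked against marker genes. All 11 sensory neuron markers passed the filter on low values, with a summed level of 4310 to 5026 FPKM (fragments per kilobase of transcript, scaled to 1000000 fragments) over the 6 libraries. Schwann cell markers (8 genes) summed to 3462 to 4295 FPKM and satellite glia markers (5 genes) to 1572 to 1833 FPKM, so glial genes were abundant beside neuronal ones. In such bulk RNA, fewer cells of a type and less RNA per cell cannot be told apart. The 6 markers of spinal cord glia summed to 0.801 to 2.06 FPKM, and Olig2 was listed at 0 in all libraries. Skeletal muscle markers (6 genes) stood apart, since control 2 reached 474.8 FPKM and PDN 3 reached 151.9 FPKM. PDN 1 followed with 29.2 FPKM, and the remaining 3 libraries lay between 1.78 and 2.02 FPKM. The number of fragments per library is unknown here, since the deposited values are already scaled.

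The 53 members with a RefSeq promoter (assembly GRCr8, 250 bases before to 50 bases after the annotated start) were compared with all 33469 promoters of that length. The GC box GGGCGG, on either strand and with overlapping matches allowed, stood in 54.7% of the member promoters against 33.1% of all. The TATA box TATAAA was found in 0 of the 53 against 14.2% of all, and CCAAT in 32.1% against 37.5%. The median GC content was 64.0% against 51.7%, and the median number of CpG dinucleotides was 18 against 7. These shares describe letters and not binding. Members entered with a single promoter per symbol. The full set was neither reduced in that way nor limited to the genes of the deposited table, so the shares compare unlike sets. The promoters of the 4 members below are shown because their libraries separated the groups with the smallest p-values, Plxnb1 and Sema6b with higher values in PDN and Efnb1 and Nrp1 with lower ones. They run 5′ to 3′ on the gene's strand, and capitals mark GC boxes. The windows are chr8:118622911-118623210 (plus strand) for Plxnb1, chr9:1047693-1047992 (minus strand) for Sema6b, chrX:68297279-68297578 (plus strand) for Efnb1 and chr19:73256307-73256606 (plus strand) for Nrp1.
Plxnb1: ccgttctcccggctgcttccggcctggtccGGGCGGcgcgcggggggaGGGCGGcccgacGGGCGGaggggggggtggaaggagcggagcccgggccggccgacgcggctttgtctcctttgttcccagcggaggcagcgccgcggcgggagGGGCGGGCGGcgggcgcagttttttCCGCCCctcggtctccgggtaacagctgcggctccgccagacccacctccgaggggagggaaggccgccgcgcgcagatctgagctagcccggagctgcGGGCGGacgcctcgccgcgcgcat
Sema6b: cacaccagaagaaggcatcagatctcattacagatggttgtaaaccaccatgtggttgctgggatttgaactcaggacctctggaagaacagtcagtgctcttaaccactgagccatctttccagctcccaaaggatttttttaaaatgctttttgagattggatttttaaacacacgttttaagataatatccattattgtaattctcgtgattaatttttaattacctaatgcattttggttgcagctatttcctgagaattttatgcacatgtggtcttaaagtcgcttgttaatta
Efnb1: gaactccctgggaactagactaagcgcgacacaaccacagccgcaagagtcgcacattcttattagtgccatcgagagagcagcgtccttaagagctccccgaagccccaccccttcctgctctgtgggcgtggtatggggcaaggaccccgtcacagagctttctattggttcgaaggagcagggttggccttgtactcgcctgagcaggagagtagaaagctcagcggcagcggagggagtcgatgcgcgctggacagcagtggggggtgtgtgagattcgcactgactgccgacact
Nrp1: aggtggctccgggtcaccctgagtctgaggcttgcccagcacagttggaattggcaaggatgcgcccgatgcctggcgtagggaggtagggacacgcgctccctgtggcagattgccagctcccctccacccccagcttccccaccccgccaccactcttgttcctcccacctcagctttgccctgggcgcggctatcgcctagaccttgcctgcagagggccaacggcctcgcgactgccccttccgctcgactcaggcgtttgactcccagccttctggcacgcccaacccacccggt
The Plxnb1 window held 7 GC boxes and 45 CpG dinucleotides at 77.3% GC. The Sema6b window held 0 GC boxes and 3 CpG dinucleotides at 36.3% GC. The windows of Efnb1 and Nrp1 held 0 GC boxes each, with 18 CpG dinucleotides each. Of the 4 windows only that of Plxnb1 held the motif. Each window is the first entry listed for its symbol, and whether transcription in these libraries starts there was not tested.

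Which guidance genes the ganglion transcribes was read first. Of the 68 members, 25 had a mean level of at least 10 FPKM, 30 lay between 1 and 10 FPKM and 13 lay below 1 FPKM. A total of 56 members (82.4%) reached 1 FPKM in 3 or more libraries and entered the test, against 58.9% of all genes in the table. The median level of these 56 was 8.42 FPKM, and that of all 13282 tested genes was 9.35 FPKM. Sema3b, Sema7a, Slit1, Robo2 and Sema4d were the most abundant members, in that order. The 6 libraries of Sema3b lay above all those of Sema7a, and those of Sema7a above all those of Slit1, whereas Slit1, Robo2 and Sema4d overlapped.

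**Figure D1:**
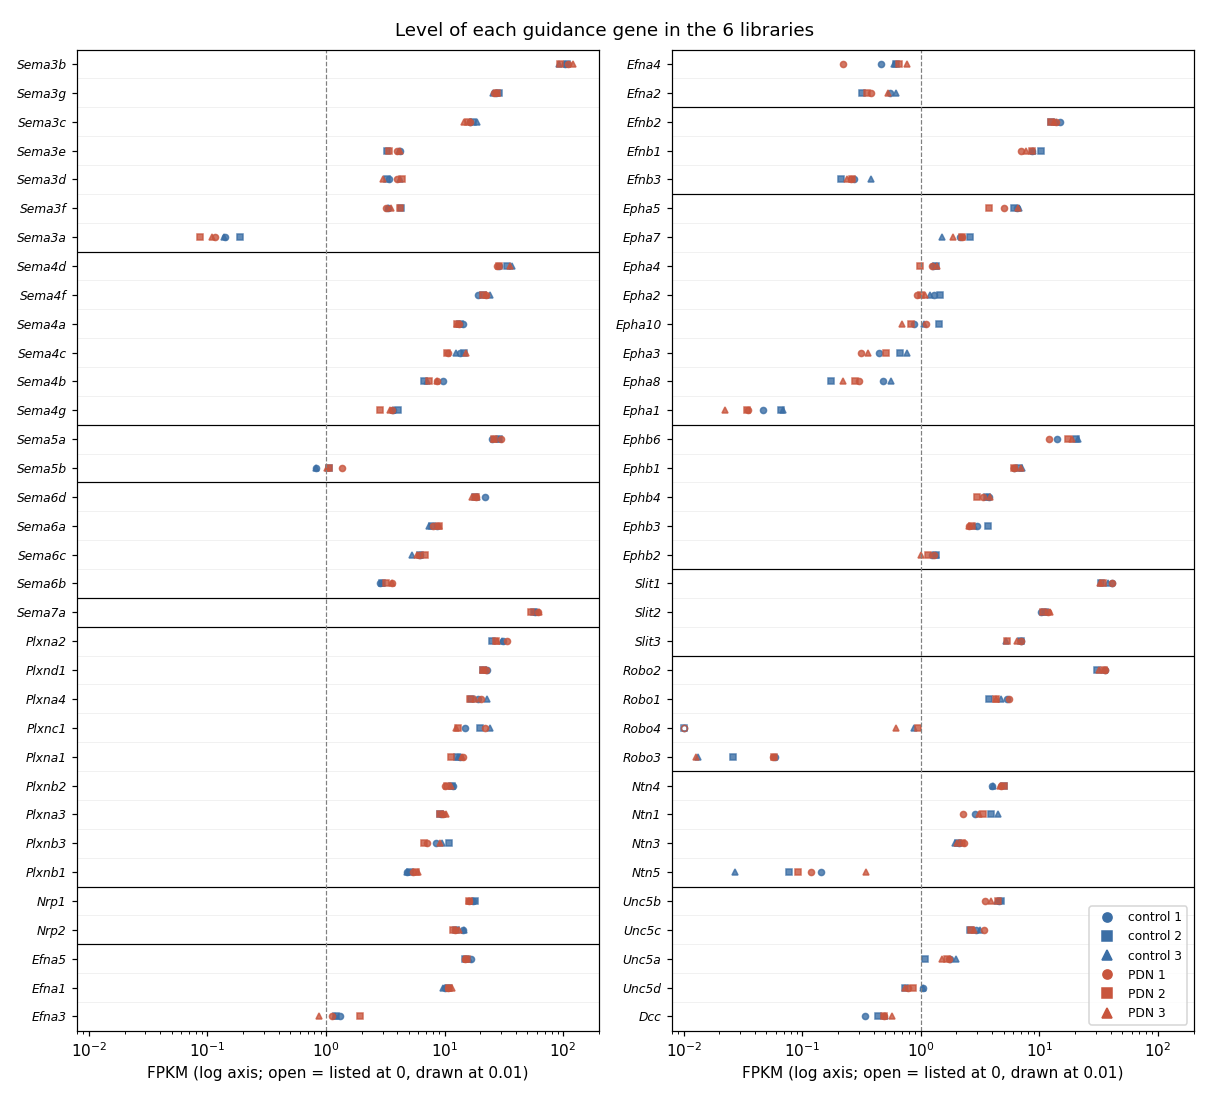
FPKM of each of the 68 guidance genes in each of the 6 libraries on a log axis, with 1 symbol per library, blue for control and red for PDN, genes ordered by family and mean level, black lines between families and a dashed line at 1 FPKM. Sema3b, Sema7a, Slit1 and Robo2 lie furthest to the right, most libraries of a gene lie close together, and Robo4 is listed at 0 in 3 libraries.

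Among the secreted class 3 semaphorins 1 gene dominated. Sema3b, which encodes a semaphorin that repels or attracts according to its receptor complex, was at 103, 108 and 91.9 FPKM in controls 1 to 3 and at 110.2, 93.8 and 122 FPKM in PDN 1 to 3. The groups overlapped, with the highest and a low value both in PDN. Sema3b carried 65.6% of the mean FPKM of the 7 class 3 genes and exceeded the mean level of 96.0% of all tested genes. Sema3g (25.9 to 28.8 FPKM), known from endothelium, and Sema3c (14.6 to 18.6 FPKM) followed. Sema3d, Sema3e and Sema3f lay between 3.04 and 4.39 FPKM in all libraries. Sema3a, the classical repellent of sensory axons, was at 0.142, 0.187 and 0.137 FPKM in controls and at 0.115, 0.0861 and 0.109 FPKM in PDN. Its groups did not overlap, with lower values in PDN, but the level stayed below the filter and the difference was not tested.

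Neighbouring members could differ widely in level. In the deposited loci, whose genome build the sources used here do not name, Sema3b (chromosome 8, 116354073 to 116361343) and Sema3f (chromosome 8, 116437696 to 116469915) lie 76.4 kb apart. Their mean levels were 104.9 and 3.65 FPKM, a ratio of 28.7. On chromosome 4, Sema3a sits between Sema3e, at a distance of 584.1 kb, and Sema3d, at 828.3 kb, and the levels of these neighbours were 29.8 and 28.7 times that of Sema3a. Efna1, Efna3 and Efna4 lie within a stretch of chromosome 2 with gaps of 40.1 and 10.7 kb, and their mean levels were 10.6, 1.28 and 0.553 FPKM. Robo1 and Robo2, 919.5 kb apart on chromosome 11, were at 4.66 and 34.0 FPKM.

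The membrane-bound semaphorins were widely transcribed. Sema7a, a lipid-anchored semaphorin that binds integrins and plexin C1, was at 57.6, 56.4 and 59.3 FPKM in controls and 61.6, 53.4 and 62.3 FPKM in PDN. The PDN libraries spread on both sides of the controls. Sema4d, a ligand of plexin B1, was at 29.0, 33.8 and 37.2 FPKM in controls and 27.5, 29.0 and 35.4 FPKM in PDN, with both groups highest in replicate 3. Sema5a was at 25.3, 28.6 and 28.8 FPKM in controls and 30.2, 26.1 and 26.4 FPKM in PDN, and it carried 96.4% of the class 5 level. Sema5a overlapped between the groups. The other class 5 gene, Sema5b, was at 0.821, 1.07 and 0.821 FPKM in controls and 1.35, 1.05 and 1.03 FPKM in PDN, where control 2 lay among the PDN libraries. Sema6d, a ligand of plexin A1, was at 22.0, 18.0 and 18.6 FPKM in controls and 18.3, 18.5 and 17.2 FPKM in PDN, where control 1 was the highest library and the rest overlapped. The other members of classes 4 and 6 ranged from 2.86 FPKM in Sema6b to 24.4 FPKM in Sema4f.

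The receptors for semaphorins were all transcribed above the filter. Plxna2, which pairs with neuropilins and class 6 semaphorins, was the most abundant plexin, at 31.3, 25.2 and 30.6 FPKM in controls and 33.3, 27.2 and 27.5 FPKM in PDN. Its groups overlapped throughout. Plxnd1, a receptor for Sema3e in vessels, varied least of all tested members, from 21.1 to 22.6 FPKM, with a coefficient of variation of 2.95% over the 6 libraries. The median coefficient was 10.5% for the 56 tested members and 9.76% for all tested genes. Both neuropilins were present, Nrp1 at 16.1 to 18.2 FPKM and Nrp2 at 11.9 to 14.5 FPKM.

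In the other systems some families rested largely on 1 gene. Slit1 was at 41.3, 33.5 and 38.2 FPKM in controls and 40.9, 34.3 and 32.8 FPKM in PDN, above Slit2 and Slit3 (5.27 to 7.04 FPKM) in every library. Slit2, a repellent of the same family, was at 10.4, 11.2 and 11.3 FPKM in controls and 11.8, 10.7 and 12.2 FPKM in PDN. The Slit receptor gene Robo2 was at 35.6, 30.5 and 35.1 FPKM in controls and 36.2, 34.9 and 31.9 FPKM in PDN, and carried 87.0% of the Robo level. All of Slit1, Slit2 and Robo2 overlapped between the groups. Among Eph receptors, Ephb6, which lacks kinase activity, was the most abundant at 12.1 to 21.3 FPKM, followed by Ephb1 (6.11 to 7.09 FPKM) and Epha5 (3.79 to 6.70 FPKM). Among ephrins, Efna5, Efnb2 and Efna1 led. Efna5, a lipid-anchored ligand of EphA receptors, was at 16.9, 14.9 and 16.2 FPKM in controls and 15.0, 15.6 and 15.3 FPKM in PDN. Efnb2, a transmembrane ligand of EphB receptors, was at 15.0, 12.6 and 14.0 FPKM in controls and 13.7, 12.6 and 13.2 FPKM in PDN. In both ephrin genes the PDN libraries lay within or close to the control range. Netrin genes were low, and the most abundant was Ntn4, a netrin of basement membranes, at 3.97, 5.03 and 4.09 FPKM in controls and 4.75, 5.02 and 4.63 FPKM in PDN. Control 2 was its highest library and the groups overlapped. The attractive receptor gene Dcc was at 0.341, 0.436 and 0.498 FPKM in controls and 0.490, 0.493 and 0.570 FPKM in PDN, below the repulsive receptor genes Unc5b (3.47 to 4.80 FPKM) and Unc5c (2.63 to 3.40 FPKM) in every library.

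The 12 members below the filter were Dcc, Efna2, Efna4, Efnb3, Epha1, Epha3, Epha8, Ntn5, Robo3, Robo4, Sema3a and Unc5d. They did not exceed 1.05 FPKM in any library. Epha1 was the other member of this set whose groups did not overlap, at 0.0470, 0.0669 and 0.0685 FPKM in controls and 0.0350, 0.0339 and 0.0222 FPKM in PDN. Robo4, a receptor of endothelial cells, was listed at 0 in control 1, control 2 and PDN 1, whereas control 3 had 0.881 FPKM, PDN 2 had 0.948 FPKM and PDN 3 had 0.618 FPKM. The endothelial gene Cdh5 ranged from 4.46 to 6.76 FPKM over the same libraries. An exact 0 in such a table can be a failed estimate.

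The comparison of PDN with control tissue then asked which of these genes differ. Of the 56 tested members, 0 passed an adjusted p of 0.05 in limma (Benjamini-Hochberg over 13282 genes), where 0% of all tested genes passed. The smallest adjusted p among the members was 0.999. At an unadjusted p under 0.05 there was 1 member, Plxnb1, higher in PDN (1.79% of the 56), against 1.83% of all tested genes that were higher at that threshold. On the lower side there were 0 members, against 2.89% of all tested genes. The higher share was near that of all tested genes. With 56 members, neither share is read as a result about the members. Without control 2 and PDN 3 there were 0 higher members, against 1.69% of all tested genes, and 4 lower ones (7.14%), against 2.54%. These were Epha5, Nrp2, Plxnb3 and Sema4c, with an adjusted p of at least 0.93 in limma, where 9 of all tested genes and 0 members passed the adjusted threshold. The median difference of the members was -0.027 on the log2(FPKM + 1) scale and that of all tested genes was -0.016. Without control 2 these medians were -0.0817 and -0.0091, and without PDN 1 they were -0.0578 and -0.0045. Among all tested genes at an unadjusted p under 0.05, 38.8% were higher, a share of 50.4% when libraries were scaled by the median of ratios and of 52.5% by the upper quartile. Lower estimates were found in 33 members (58.9%) and in 56.6% of all tested genes. Under those scalings 29 and 28 of the 56 were lower, beside 48.5% and 48.2% of all tested genes. The member medians were then -0.0064 and -0.0054, and those of all tested genes 0.0036 and 0.0046. The 26 tested receptor genes had a median of -0.10 (17 lower) and the 30 tested ligand genes one of -0.0004 (16 lower), which turned to 0.02 under both scalings. The receptor median was -0.083 and -0.082 under those scalings and -0.036 without PDN 2. Without control 2 or without PDN 1, 23 of the 26 receptor genes were lower, beside 53.4% and 51.9% of all tested genes. Leaving out any other single library gave 17 or 18 lower receptor genes.

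The intervals bound the size of a difference for single genes. On the log2(FPKM + 1) scale the 95% intervals had a median half-width of 0.232, and 51 of the 56 lay between -0.5 and 0.5. All 56 lay between -1 and 1, with the lowest bound at -0.885 in Plxnc1 and the highest at 0.44 in Sema5b. This scale understates the change of low genes, and the intervals are not adjusted for the number of genes. A p above the threshold does not show that levels were equal.

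**Figure D2:**
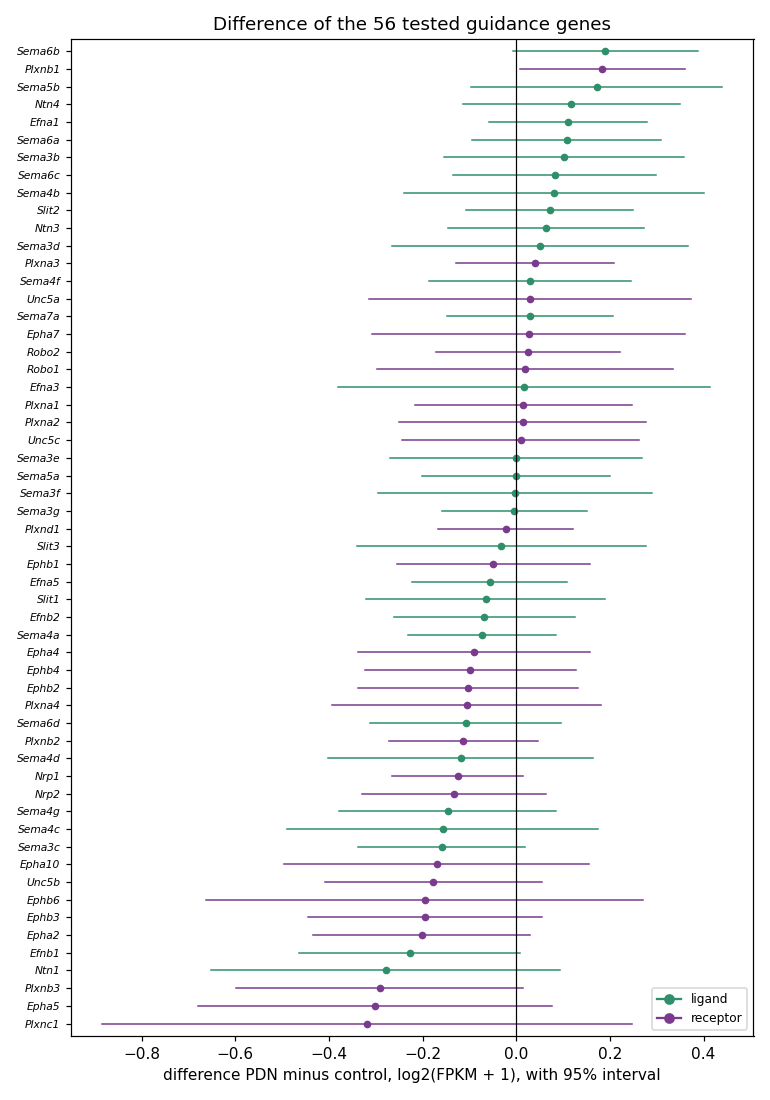
Difference between PDN and control on the log2(FPKM + 1) scale for the 56 tested guidance genes, with 95% intervals from limma, green for ligands and purple for receptors. The interval of Plxnb1 alone stays clear of 0, and the widest is that of Plxnc1.

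The groups did not overlap in 10 tested members. In 3 of them (5.36%) all PDN libraries lay above all controls, against 3.69% of tested genes, and in 7 (12.5%) they lay below, against 6.24% of tested genes. The higher genes were Plxnb1, Sema6b and Efna1. The lower genes were Efnb1, Nrp1, Sema3c, Epha2, Ephb3, Plxnb2 and Sema4g. None of these passed the adjusted threshold in limma. The counts and shares are of FPKM as deposited. With each library divided by its scaling factor, Sema3c and Sema4g overlapped under both scalings. Plxnb2 overlapped by the median of ratios only, and Efnb1 by the upper quartile only. The shares of all tested genes were not recounted under these scalings, so 12.5% against 6.24% holds for the deposited values only.

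Plxnb1 (ENSRNOG00000029510, chromosome 8, 117836701 to 117856689 in the deposited loci) encodes plexin B1, which receives Sema4d and regulates RhoA. It was at 4.86, 5.07 and 4.81 FPKM in controls and 5.47, 5.70 and 5.98 FPKM in PDN. All 3 PDN libraries were higher, with the closest pair at 5.07 and 5.47 FPKM. The means were 4.91 ± 0.140 and 5.72 ± 0.258 FPKM (SD, n = 3 each), a ratio of 1.16. On the log2(FPKM + 1) scale the difference was 0.18 ± 0.08 (SE) with an interval of 0.007 to 0.36 (limma unadjusted p = 0.0433, adjusted p = 0.999). Over 17 other settings the estimate ran from 0.155 to 0.214, and leaving out any 1 library other than PDN 1 gave an unadjusted p above 0.05, between 0.0614 and 0.131. Its ligand gene Sema4d differed by -0.12 ± 0.12 (SE), with an interval of -0.403 to 0.165. The Sema4d estimate ran from -0.22 without PDN 3 and -0.21 without control 1 to -0.05 without PDN 1 and -0.04 without control 3.

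Sema6b, a transmembrane semaphorin that binds A-type plexins, was at 2.86, 2.97 and 2.97 FPKM in controls and 3.64, 3.22 and 3.60 FPKM in PDN. The controls lay close together and below every PDN library. The difference was 0.19 ± 0.08 on the log2(FPKM + 1) scale (SE, limma unadjusted p = 0.056, adjusted p = 0.999). Under the 2 scalings the unadjusted p in limma was 0.0437 and 0.0449. Efna1, an ephrin bound by EphA receptors, was at 10.2, 10.7 and 9.66 FPKM in controls and 10.7, 10.8 and 11.6 FPKM in PDN. Here control 2 (10.68 FPKM) and PDN 1 (10.74 FPKM) nearly met, and the difference of 0.11 ± 0.07 (SE) had an interval of -0.059 to 0.28.

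On the lower side, Efnb1 had the largest estimate of the 7 on the log2(FPKM + 1) scale. By the ratio of means, PDN over control, Epha2 (0.769) and Ephb3 (0.828) lay below Efnb1 (0.839). Efnb1 encodes an ephrin that signals in both directions at cell contacts. Its level was 8.63, 10.3 and 8.94 FPKM in controls and 6.95, 8.61 and 7.79 FPKM in PDN. Control 1 (8.626 FPKM) and PDN 2 (8.608 FPKM) were almost equal. The difference was -0.23 ± 0.10 on the log2(FPKM + 1) scale (SE, interval -0.463 to 0.008, limma adjusted p = 0.999). Nrp1, the co-receptor for class 3 semaphorins and for VEGF, was at 17.4, 18.2 and 17.5 FPKM in controls and 16.2, 16.2 and 16.1 FPKM in PDN. Its PDN libraries were nearly equal, with an SD of 0.0520 FPKM, and lay below every control. The difference of Nrp1 was -0.13 ± 0.06 (SE; interval -0.265 to 0.014). Sema3c, a neuropilin ligand, was at 16.4, 17.5 and 18.6 FPKM in controls and 16.3, 15.8 and 14.6 FPKM in PDN, where control 1 and PDN 1 nearly met.

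Most Eph receptor genes had lower estimates in PDN. Epha2, a receptor for ephrin-A1, was at 1.29, 1.45 and 1.20 FPKM in controls and 0.939, 1.00 and 1.09 FPKM in PDN. Ephb3, a receptor for ephrin-B ligands, was at 2.96, 3.73 and 2.81 FPKM in controls and 2.57, 2.72 and 2.57 FPKM in PDN. Both had all PDN values below all control values, by a small gap in Ephb3. Epha5, the most abundant EphA receptor, was at 6.49, 6.16 and 6.70 FPKM in controls and 5.04, 3.79 and 6.65 FPKM in PDN, so PDN 3 lay among the controls. Its estimate of -0.30 ± 0.16 (SE) moved to -0.47 without PDN 3, with an unadjusted p of 0.00753 and an adjusted p of 0.641 in limma, and to -0.13 without PDN 2. Of 10 tested Eph receptor genes 9 had lower estimates, with a median of -0.14, beside 56.6% and -0.016 over all tested genes. The count of 9 was the same under both scalings. Of these 10, 0 were lower at an unadjusted p under 0.05.

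**Figure D3:**
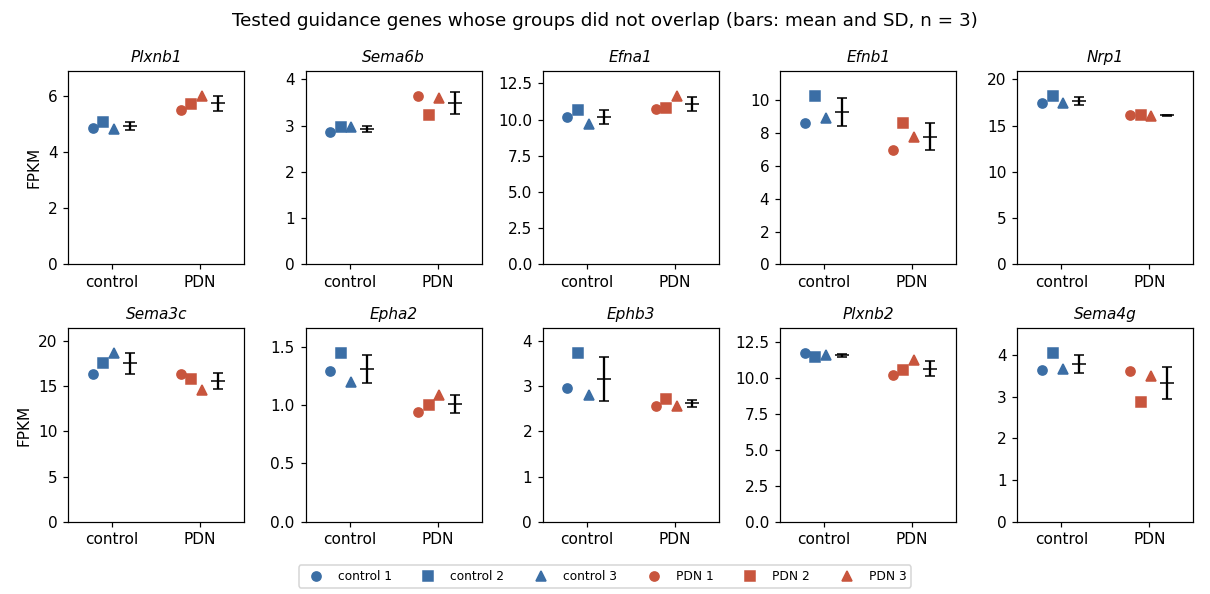
FPKM of the 10 tested guidance genes whose groups did not overlap, by library (blue for control, red for PDN), with the mean and SD of each group of 3 beside the points and axes that start at 0. The ratio of means, PDN over control, runs from 0.769 in Epha2 to 1.19 in Sema6b. Efna1, Efnb1, Sema3c and Sema4g have a control and a PDN library almost at the same value.

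Plxnb2, which was named for its separation after its values were seen, was at 11.7, 11.5 and 11.6 FPKM in controls and 10.2, 10.5 and 11.2 FPKM in PDN. Sema4g was at 3.65, 4.04 and 3.66 FPKM in controls and 3.62, 2.88 and 3.49 FPKM in PDN. The estimates of the B-type plexins differed in sign, with 0.18 in Plxnb1, -0.11 in Plxnb2 and -0.29 in Plxnb3. Ntn1, the attractant that binds Dcc, was at 2.89, 3.88 and 4.45 FPKM in controls and 2.27, 3.32 and 3.10 FPKM in PDN. Its repulsive receptor gene Unc5b was at 4.55, 4.80 and 4.43 FPKM in controls and 3.47, 4.50 and 3.92 FPKM in PDN. In both genes the groups overlapped and the intervals included 0.

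Some members varied widely within both groups. Plxnc1, the receptor for Sema7a, was at 15.0, 19.8 and 24.3 FPKM in controls and 22.2, 12.9 and 12.5 FPKM in PDN. Its coefficient of variation of 28.2% was the highest of the tested members, and PDN 1 lay among the controls. Its estimate of -0.32 ± 0.24 (SE) moved to -0.57 without PDN 1. Ephb6 was at 14.0, 20.5 and 21.3 FPKM in controls and 12.1, 17.6 and 18.7 FPKM in PDN, with replicate 1 lowest in each group. Plxnb3, a receptor for Sema5a, was at 8.51, 10.9 and 9.48 FPKM in controls and 7.16, 6.76 and 9.22 FPKM in PDN. In Plxnb3 each group was highest in the library with the most muscle RNA. Plxnc1, Plxnb3, Robo4 and the members that separate only without some libraries were picked out after their values were seen.

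**Figure D4:**
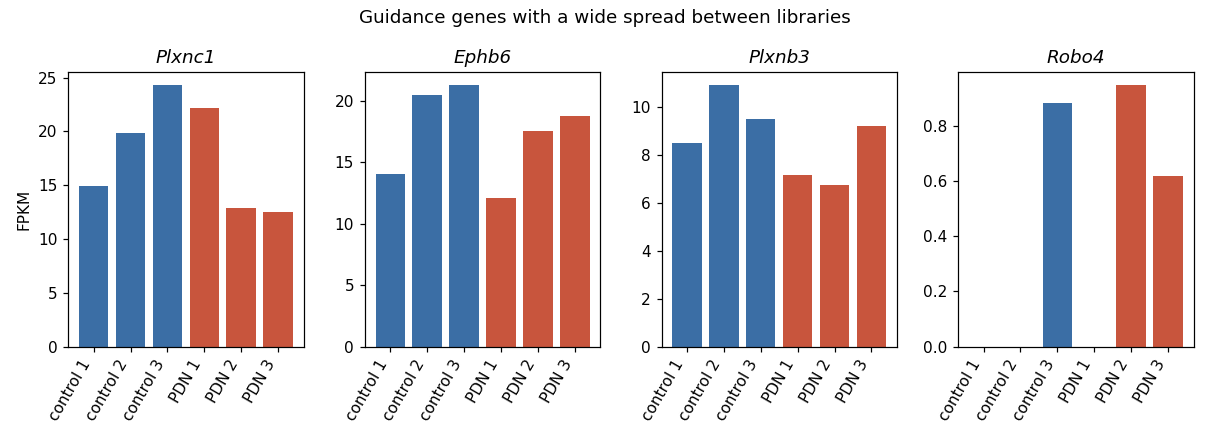
FPKM of Plxnc1, Ephb6, Plxnb3 and Robo4 in each library, with blue bars for control and red bars for PDN and axes that start at 0. The libraries of 1 group differ by as much as the groups do, and Robo4 has no bar where it is listed at 0.

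Summed over families, the level of all 68 members was 750 to 768.3 FPKM in controls and 702.6 to 762.1 FPKM in PDN, which is 0.199% to 0.227% of the FPKM of a library. In 12 of the 15 families the sums overlapped between the groups. The 8 EphA genes summed to 13.0, 13.9 and 13.3 FPKM in controls and 11.2, 9.63 and 12.3 FPKM in PDN. The 3 ephrin-B genes summed to 23.9, 23.1 and 23.3 FPKM in controls and 20.9, 21.4 and 21.3 FPKM in PDN. The 2 neuropilin genes summed to 31.6, 30.6 and 32.0 FPKM in controls and 28.3, 28.0 and 29.3 FPKM in PDN. These 3 sums did not overlap, also under both scalings, with PDN means at 0.825, 0.905 and 0.909 of the control means. They were picked out among the families after their values were seen, and no test was made of a sum. Beside them, 6.24% of single tested genes had all PDN libraries below all controls, and no such share was computed for sums. Epha5 carried 47.5% of the EphA level, Efnb2 60.6% of the ephrin-B level and Nrp1 56.4% of the neuropilin level. The sums of all Eph receptors and of all ephrins overlapped between the groups, also under both scalings.

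**Figure D5:**
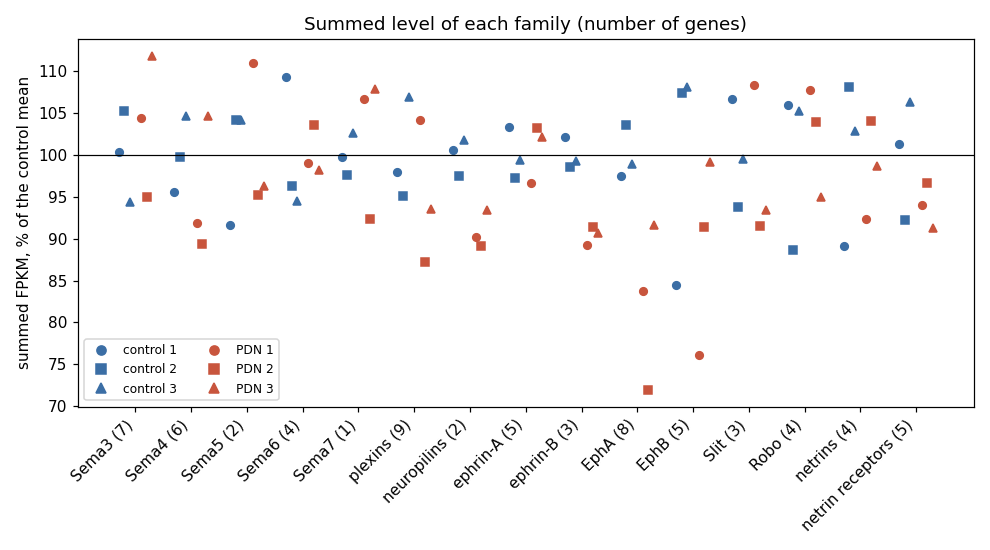
Summed FPKM of each of 15 guidance gene families by library, as a percentage of the mean of the 3 controls, with the number of genes in brackets, blue for control and red for PDN. EphA, ephrin-B and the neuropilins have all PDN libraries below all controls, and the other families overlap.

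Marker sums of macrophages and fibroblasts were lower in PDN as well. The 5 macrophage markers summed to 24.2 to 34.5 FPKM in controls and 14.2 to 22.1 FPKM in PDN. Of the 4 tested, 4 were lower at an unadjusted p under 0.05 in limma. Over all tested genes 2.89% were lower and 1.83% higher at that threshold. Fibroblast markers (5 genes, 2 lower at that threshold) summed to 305.4 to 341.2 and 271.1 to 288.3 FPKM. Pericyte and smooth muscle markers (4 genes, 2 lower) summed to 45.6 to 56.1 and 32.4 to 47.2 FPKM, and endothelial markers (5 genes, 1 lower and 1 higher) to 42.5 to 55.0 and 43.7 to 50.9 FPKM, so these sums overlapped. Satellite glia markers (5 genes, 1 lower and 0 higher) summed to 1572 to 1833 and 1625 to 1758 FPKM and overlapped as well. None of these markers was listed at 0 in any library. The part of these cells in the lower values of Efnb1, Nrp1, Sema3c, Epha2 and Ephb3 was not tested. Among the tested members, the highest value was in control 2 for 13 genes and in PDN 2 for 4, and the lowest was in PDN 2 for 13.

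The rest of the pathway was read from lists of co-receptors and of intracellular effectors. Of 18 tested co-receptor and other cue genes, 9 had higher and 9 lower estimates, with a median of 0.001, and 0 passed the adjusted threshold in limma. At an unadjusted p under 0.05 there was 1 higher gene and 1 lower gene, against the 1.83% and 2.89% given above. The higher gene was Islr2, which encodes a membrane protein of developing sensory axons, at 0.714, 0.731 and 0.833 FPKM in controls and 1.82, 1.21 and 1.40 FPKM in PDN. Every PDN library was above every control, at a mean of 1.48 ± 0.313 against 0.760 ± 0.0646 FPKM (SD, n = 3 each, limma unadjusted p = 0.00459, adjusted p = 0.811). Islr2 passed the filter of 1 FPKM only through its PDN libraries, since all its controls lay below that value. Its separation was thus partly set by the filter. The lower gene was Reln, which encodes the secreted protein reelin, at 39.9, 38.6 and 36.2 FPKM in controls and 30.9, 26.2 and 36.9 FPKM in PDN. PDN 3 lay among the controls. Cntn1, a cell adhesion gene, was the most abundant of this list at 192.7 to 206.6 FPKM.

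The effectors that carry guidance signals to the cytoskeleton were abundant. Of 44 tested, 22 had higher and 22 lower estimates, with a median of -0.002, and 0 lay at an unadjusted p under 0.05 in limma. Dpysl2, which encodes the collapsin response mediator CRMP2, was the most abundant, at 452.7, 409.1 and 420 FPKM in controls and 442.9, 410.9 and 405.9 FPKM in PDN. Its groups overlapped, with an estimate of -0.02 ± 0.07 (SE). The summed level of the 45 effector genes found was 2173 to 2319 FPKM in controls and 2173 to 2232 FPKM in PDN.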

How the data were processed

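Libraries of the strand-specific kind used for long noncoding RNA were made from 1 µg of total RNA, per the labels' protocols. The authors deposited FPKM per gene. Which aligner, quantifier, annotation and build they used is not given in the sources used here. A second table, deposited under the name of read counts, was treated as a score and not as counts: for 54.5% to 54.8% of genes above 1000 its whole numbers equal, within a relative tolerance of 0.001, the FPKM times the genomic span times 1 constant per library. What made that table is not known, so neither fragments per library nor per gene were taken from it and no counting interval was computed.

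The 13282 genes that reached 1 FPKM in 3 or more libraries were put on the log2(FPKM + 1) scale and fitted by limma 3.58.1 under R 4.3.3 (intensity trend, group as the only term, PDN minus control), with Benjamini-Hochberg adjustment over all of them and a threshold of 0.05. The fit was run on simulated data, where only the mean estimate was checked. Noise there was independent between genes, unlike spread that a whole library shares. Values in each library are given for members at an unadjusted p under 0.05 and, in each family, for the most abundant member and the one with the smallest p. Other members named were chosen after their values were seen. The members, lists and tests were chosen with earlier results of these data known, so they give no independent support. Of the listed genes, Ablim1, Pecam1 and Myh4 were not analysed here. Promoters are RefSeq sequences matched by symbol (53 of 68 members).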

Additional observations from a re-analysis of the deposited data

How the results depend on the processing

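Under each of 17 other settings, 0 members passed the adjusted threshold in limma, and the smallest adjusted p of a named member was 0.641. Over all genes, 0 to 9 passed, with 9 without control 2 and PDN 3, 6 without PDN 3, 4 without PDN 1, 3 without control 1, 2 without control 3, 2 in the whole-number table, and 1 each without the filter and with robust empirical Bayes. The count at an unadjusted p under 0.05 was small and moved with the setting. The 1 higher member became 2 with median-of-ratios scaling, upper-quartile scaling and the whole-number table, and 0 without the filter, with the stricter filter (mean of at least 5 FPKM), with robust empirical Bayes, and without control 2 and PDN 3, which hold the most muscle RNA. The 0 lower members became 2 without the filter, 1 with the whole-number table, 1 with array weights, and 4 without control 2 and PDN 3. Leaving out each library in turn gave 0 to 1 higher and 0 to 4 lower members, with 4 (7.14%) without control 1 and 3 (5.36%) without PDN 3, against 3.4% and 3.93% of all tested genes. The all-gene share of lower calls without 1 library ran from 1.8% (without control 2) to 3.93%. The member median lay between -0.0817 (without control 2) and -0.0151 (without control 1), where all genes had -0.0091 and -0.0193. The cause was not tested.

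Same-numbered libraries correlated at 0.171, -0.12 and -0.0865 in their deviations from the group means, and control 2 correlated best with PDN 3, so the numbers were not taken to pair the libraries. A replicate block gave 0 higher and 3 lower members (Efnb1, Ephb6 and Ntn1), which is 5.36% of the 56, against 2.48% higher and 3.92% lower over all tested genes.

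Of 434 refits of 26 named members, 416 kept their direction. The exceptions were near 0. Plxna2 turned to -0.012 with array weights and to -0.039 without control 2 and PDN 3. Sema5a turned to 0.021, 0.022 and 0.012 with median-of-ratios scaling, upper-quartile scaling and the whole-number table, and to 0.055 without control 2 and PDN 3. Sema7a turned to -0.027 without these libraries. Without 1 library, Plxna2 ran from -0.0815 to 0.0704, Robo2 from -0.0448 to 0.0756, Sema5a from -0.0669 to 0.0367, Sema7a from -0.0101 to 0.0995 and Slit1 from -0.159 to 0.00235. The unadjusted p of Plxnb1 ran from 0.0247 to 0.167, the latter without control 2 and PDN 3. Depth per gene is unknown, which limits the members below 1 FPKM most.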
